A study of Mus musculus with 29 samples.

Results

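The MHC class I presentation genes described here are H2-K1, H2-D1, B2m, Tap1, Tapbp, Psmb8 and Psmb9. They were chosen by name, as 7 genes of the 19704 listed in the young brain tables, 27514 in the aged brain tables and 16623 in the blood tables, and all 7 are present in every table. Their level was taken as counts per 1000000 (CPM) of the counts summed over the cells of a type in each library, for microglia, endothelium and leukocytes.

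The study measured single-cell gene expression by Drop-seq, in which each cell is captured in a droplet with a barcoded bead, in 29 libraries of brain and blood from C57BL/6J mice. Stroke was produced by closing the middle cerebral artery for a limited time and then letting blood return, and controls had sham surgery. The young mice were males aged 8 to 10 weeks, with 4 libraries of brain cells at day 2 after sham surgery, 4 at day 2 after stroke and 4 at day 14 after stroke. Their blood gave 4, 4 and 3 libraries in the same order. Mice of 17 to 20 months gave brain libraries only: at day 2 after sham surgery 1 from males and 1 from females, at day 2 after stroke 1 from males and 2 from females, and at day 14 after stroke 1 from females. Each brain library pooled 4 to 5 hemispheres, which were dissociated with papain in the presence of actinomycin D, and held sorted cells with intermediate or high CD45 together with CD45-negative, Ly6c-high endothelium. Each blood library pooled 2 mice after removal of red cells with Ter-119. There was no sham group at day 14, so that the day 14 comparison combines stroke with time after surgery, and both stroke groups were set against the same sham libraries. The labels do not say that libraries of a group came from separate experiments, and the p-values measure the spread between these pooled libraries, which may be partly technical.

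MHC class I molecules carry peptides from inside the cell to its surface, where CD8 T cells read them and where natural killer cells sense their absence. H2-K1 and H2-D1 encode classical heavy chains, and B2m encodes the light chain, beta-2-microglobulin, without which heavy chains do not reach the surface. Psmb8 and Psmb9 are catalytic subunits of the immunoproteasome, which cuts proteins into peptides, Tap1 is a subunit of the pump that moves peptides into the endoplasmic reticulum, and Tapbp (tapasin) bridges that pump to the empty heavy chain. Interferons raise the transcription of these genes through interferon regulatory factors (IRF) and the activator NLRC5, and in the resting brain class I levels are known to be low.

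Of the 7 genes, 6 lie on mouse chromosome 17, within 33915899 to 35267499 in the GENCODE vM21 annotation of GRCm38. Tapbp spans chr17:33915899-33929292 on the plus strand and H2-K1 chr17:33996017-34000347 on the minus strand. Psmb9 (chr17:34181987-34187764, minus), Tap1 (chr17:34187553-34197225, plus) and Psmb8 (chr17:34197721-34201454, plus) follow one another, and H2-D1 lies at chr17:35262730-35267499 on the plus strand. B2m lies at chr2:122147686-122153083 on the plus strand. Psmb9 and Tap1 overlap by 212 bases in opposite orientation. The shared bases are at the 5′ end of both genes, whereas Drop-seq reads come from the 3′ ends of transcripts. Whether the counting used strand is not given in the sources used here, so any reads from the shared bases cannot be told apart.

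The sequence just before the start site is shown for a heavy chain and for the light chain because these genes rose together in the results below. Capitals mark matches, on either strand, to a kappaB-like motif (GGG and CC with any 5 bases between them), an IRF core (AANNGAAA), TGACG as in the cyclic-AMP-response type element, and CCAAT. Both windows were taken from RefSeq promoter sequences of GRCm38.p6, are written 5′ to 3′ on the strand of the gene, and hold all 4 motifs. H2-K1 is read from chr17:34000348-34000597 (minus) and B2m from chr2:122147437-122147685 (plus).
H2-K1: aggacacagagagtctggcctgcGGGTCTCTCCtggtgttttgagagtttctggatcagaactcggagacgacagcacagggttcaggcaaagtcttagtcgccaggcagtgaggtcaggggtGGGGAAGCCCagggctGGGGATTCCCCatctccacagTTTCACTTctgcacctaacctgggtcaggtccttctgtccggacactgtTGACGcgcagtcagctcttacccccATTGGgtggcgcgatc
B2m: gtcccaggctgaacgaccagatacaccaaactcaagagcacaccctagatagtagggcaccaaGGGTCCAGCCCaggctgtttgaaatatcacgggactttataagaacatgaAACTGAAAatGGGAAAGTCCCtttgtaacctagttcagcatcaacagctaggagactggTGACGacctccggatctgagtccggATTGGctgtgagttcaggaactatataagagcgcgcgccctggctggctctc

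The stretch that joins the kappaB-like and IRF matches is shown again for the 3 chains, to compare the heavy chains with each other and with the light chain. The H2-K1 stretch is at chr17:34000430-34000458 (minus), that of H2-D1 at chr17:35262923-35262951 (plus) and that of B2m at chr2:122147550-122147570 (plus), with the same capitals.
H2-K1 element: GGGGATTCCCCatctccacagTTTCACTT
H2-D1 element: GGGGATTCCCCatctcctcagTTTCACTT
B2m element: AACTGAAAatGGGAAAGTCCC
The heavy chain stretches differ by 1 base, A18T, counted from 1 at the 5′ end of the H2-K1 stretch. In B2m the IRF core comes before the kappaB-like match, and in the heavy chains after it.

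All 7 genes matched a RefSeq promoter. The windows of Tap1 and Psmb9 held the kappaB-like motif, TGACG and CCAAT but no IRF core, that of Tapbp held only CCAAT, and that of Psmb8 held none of the 4. These windows are not all upstream sequence. In the annotation of the same build the 250 bases of H2-D1, Psmb8 and Psmb9 lie wholly in annotated exons of the gene itself, and 244 bases of that of Tapbp lie in exons of Tapbp or Zbtb22 on its strand. The windows of Tap1 (chr17:34187306-34187555, plus) and Psmb9 (chr17:34187331-34187580, minus) cover nearly the same DNA on opposite strands, so that their matches are not independent. Short motifs are common: of 32851 promoter windows of 250 bases, 45.8% held the kappaB-like motif, 21.3% the IRF core, 17.8% TGACG and 33.8% CCAAT. A match is a run of letters and was not tested as a binding site.

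The 2 heavy chains are close relatives, and Drop-seq reads come from transcript ends. Windows of 50 bases were taken from the last 300 bases of a single transcript per gene. Of these, 0.797% of those of H2-K1 and 9.16% of those of H2-D1 also occurred in a transcript of another gene. The matches were to other heavy chains, and no window of the other 5 members was shared. By these windows, values of H2-D1 carry a small uncertainty from H2-K1 and H2-Q2, and those of H2-K1 a smaller one from H2-D1. Among the other heavy chains named below, 58.6% of such windows of H2-Q6, 49.8% of H2-T10, 48.6% of H2-T22, 50.6% of H2-T23 and 45.4% of H2-Q4 were shared, so that their counts are uncertain. The windows of H2-Q6, H2-T10 and H2-T22 were shared with other heavy chains, whereas those of H2-Q4 matched no other named H2 gene and those of H2-T23 matched mostly genes outside the family. By contrast, the windows of H2-Q7 and H2-T24, taken from the end of a single transcript of each gene, were found in no other gene. Windows of H2-Q6 did occur in transcripts of H2-Q7 and, among the members, of H2-K1 and H2-D1. Counts of H2-Q7 are therefore uncertain too, and those of H2-K1 and H2-D1 may also hold reads of H2-Q6.

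Depth differed widely. Brain libraries held 1143 to 5121 cells and 819438 to 5855047 counts, and blood libraries 2360 to 6328 cells and 966914 to 5232662 counts. Over the 18 brain libraries the deposited annotation gave 24707 microglia, 7627 endothelial cells and 22524 leukocytes, and over the 11 blood libraries 51378 leukocytes. The fixed marker lists matched the deposited codes of microglia, endothelium, monocyte-derived cells, granulocytes and lymphocytes, whereas the monocyte list led in cells coded as dendritic cells and border macrophages. Of 106624 distinct barcodes, 345 occurred in 2 or more libraries. The young brain library of stroke day 2 replicate 3 stood apart in microglia: it held 58 microglia and 26321 counts, where the others of its group held 618 to 1324 cells, and its summed microglial markers were at 817 CPM against up to 12465 CPM in its group. Tests of members in microglia that use day 2 are given with and without it.

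In sham brains, most of the class I genes were lower in microglia, and all 7 lower in endothelium, than in leukocytes. H2-K1 stood at 556, 752, 1059.5 and 561 CPM in microglia of sham replicates 1 to 4. It stood at 727, 647, 603 and 883 CPM in endothelium and at 1439, 1316, 1929 and 1672 CPM in the summed brain leukocytes. Microglia and endothelium overlapped, and every leukocyte value was above both. In the edgeR quasi-likelihood test with Benjamini-Hochberg adjustment, used for each adjusted p below, leukocytes exceeded microglia for 5 of 7 members, against 26.9% of the 7134 tested genes higher and 20.6% lower. The log2 differences were 1.56 ± 0.20 (SE) for H2-K1 (adjusted p = 1.97e-06), 2.29 ± 0.21 for H2-D1, 1.55 ± 0.29 for Tap1, 0.96 ± 0.14 for Psmb8 and 1.16 ± 0.18 for Psmb9. B2m (0.44, adjusted p = 0.0708) and Tapbp (0.11, adjusted p = 0.691) did not pass. The sum over leukocytes moves with the mix of their types.

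Against endothelium, leukocytes were higher for all 7 members, by 0.70 (Tapbp) to 1.75 (Psmb9) on the log2 scale, where 28.5% of all tested genes were higher and 20.7% lower. Tap1 (1.31 ± 0.38, adjusted p = 0.0066) and Tapbp (0.70 ± 0.25, adjusted p = 0.0244) lost the call when scaled by library size alone (0.88, adjusted p = 0.0612, and 0.26, adjusted p = 0.396). Tapbp also lost it without sham replicate 2 (0.52, adjusted p = 0.196). The 2 brain-resident types differed from each other by gene. Endothelium was below microglia for B2m (log2 difference -0.89 ± 0.20, adjusted p = 0.000753), Psmb8 (-0.70 ± 0.17, adjusted p = 0.00127), Tapbp (-0.59 ± 0.22, adjusted p = 0.0313) and Psmb9 (-0.58 ± 0.24, adjusted p = 0.0476), and above it for H2-D1 (0.59 ± 0.21, adjusted p = 0.0212). H2-K1 differed by 0.02 and Tap1 by 0.24, neither past the test. Among all genes 26.8% were higher in endothelium and 27.4% lower. Leaving out sham replicate 2 (-0.46) or 3 (-0.50) ended the call of Tapbp (adjusted p of 0.192 and 0.0854). Leaving out sham replicate 1 (0.40) or 4 (0.48) ended that of H2-D1 (adjusted p of 0.12 and 0.0582), as did no filter on low counts (0.39, adjusted p = 0.124). The call of Psmb9 was lost without any 1 of the 4 (adjusted p from 0.0536 to 0.202), in DESeq2 (-0.65, adjusted p = 0.0602) and without the 5% of cells with the highest Scrublet doublet scores (-0.53, adjusted p = 0.0686).

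Across the deposited cell types of sham libraries the 2 heavy chains had different orders. H2-K1 was at 279 ± 117 CPM (SD, n = 4) in blood neutrophils and 307 ± 69.7 in brain granulocytes, below endothelium at 715 ± 123 and microglia at 732 ± 236. It was at 1049 ± 229 in blood monocytes, 1731 ± 267 in brain monocyte-derived cells, 2942 ± 268 in blood T cells, 3688 ± 420 in blood natural killer cells and 4029 ± 652 in brain T cells. Neutrophils and granulocytes lay within 1 SD of each other, as did endothelium and microglia. H2-D1 was at 942 ± 267 in microglia and 1376 ± 217 in endothelium, yet at 4162 ± 1004 in brain granulocytes and 4787 ± 771 in blood neutrophils. Neutrophils thus ranked lowest of the types with 4 libraries for H2-K1 and highest of them for H2-D1. B2m was at 1517 ± 213 in brain granulocytes, 1827 ± 516 in neutrophils, 1846 ± 456 in endothelium, 3427 ± 484 in microglia, 3775 ± 738 in monocyte-derived cells, 4914 ± 503 in blood natural killer cells and 5632 ± 790 in brain T cells. These orders are descriptions with no test.

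**Figure D1:**
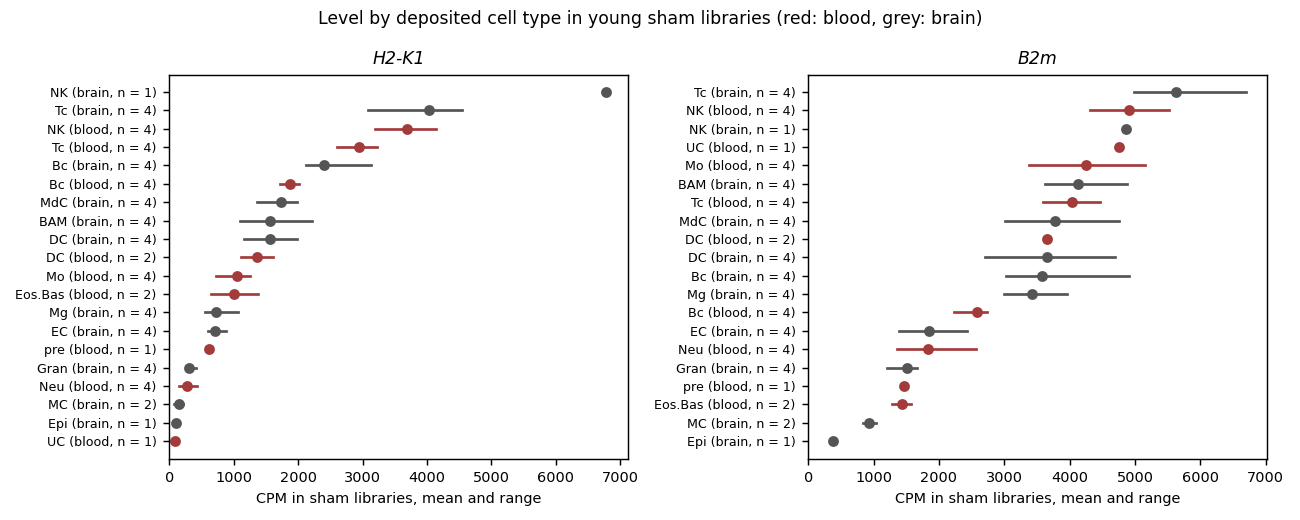
H2-K1 and B2m in sham libraries, in CPM, by deposited cell type; points are means, lines run from the lowest to the highest library, and blood types are red and brain types grey (Tc, T cells; NK, natural killer cells; Bc, B cells; Mo, monocytes; MdC, monocyte-derived cells; Gran, granulocytes; Neu, neutrophils; Mg, microglia; EC, endothelium). T and natural killer cells sit at or near the top of both panels, and neutrophils and granulocytes in the lower part.

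At day 2 after stroke, 1 of the 7 genes passed the test in microglia, a share near that of all genes (15.7% of the 10145 tested called higher and 15.7% lower), and that call, of Psmb8, was lost in 16 of 21 alternatives. The mean of Psmb8 was 1.48 times the sham mean, and 1.24 times without day 2 replicate 3. In microglia, Psmb8 stood at 228, 271, 267 and 267 CPM in sham replicates 1 to 4 and at 332, 311, 566 and 314 CPM at day 2. Each day 2 value was above each sham value, with replicate 3, the library of 58 microglia, the highest. The log2 fold change of Psmb8 was 0.57 ± 0.19 (95% interval 0.13 to 1.01, adjusted p = 0.038), so that 1 of 7 members was called higher and 0 lower. Among the settings that ended it, the call was lost without day 2 replicate 3 (0.48, adjusted p = 0.0621), without any 1 of sham replicates 1, 2 and 4, day 2 replicates 2 and 4 or day 14 replicates 1, 2 and 4 (adjusted p from 0.0502 to 0.0952), in DESeq2 (0.31, adjusted p = 0.179) and with library size alone (0.48, adjusted p = 0.0872). In DESeq2 the called member was H2-K1 instead, as lower (-0.65, adjusted p = 0.0478).

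B2m in microglia stood at 3709, 3963, 2992 and 3043 CPM in sham replicates 1 to 4 and at 5186, 3699, 6111 and 4663 CPM at day 2. Day 2 replicate 2 lay within the sham range and the other 3 above it. Its log2 fold change was 0.60 ± 0.29 (interval -0.07 to 1.26, adjusted p = 0.13). Leaving out day 2 replicate 3 gave 0.58 with an adjusted p of 0.0894. H2-K1 stood at 565, 439.5, 708 and 392 CPM at day 2, overlapping sham, with a log2 fold change of -0.43 ± 0.28 (adjusted p = 0.246). It was -0.49 without day 2 replicate 3 (adjusted p = 0.195). H2-D1 differed by -0.01 ± 0.29 (adjusted p = 0.986), Tap1 by 0.83 ± 0.39 (adjusted p = 0.12), Tapbp by 0.09 (adjusted p = 0.898) and Psmb9 by 0.59 ± 0.27 (adjusted p = 0.105). Without day 2 replicate 3 these values were -0.16 for H2-D1 (adjusted p = 0.665), 0.83 for Tap1 (0.151), 0.10 for Tapbp (0.794) and 0.52 for Psmb9 (0.166).

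At day 14 all 7 genes were called higher in microglia, against 10.6% of genes called higher and 4.66% lower, with the largest fold changes for H2-D1 and B2m. H2-D1 stood at 735, 901, 1329 and 801 CPM in sham replicates 1 to 4, at 797, 705, 1436 and 738 CPM at day 2 and at 4730.2, 4547, 6186 and 5755 CPM at day 14. The lowest day 14 library stood far above the highest library of the other groups, day 2 replicate 3. The log2 fold change against sham was 2.95 ± 0.31 (95% interval 2.25 to 3.64, adjusted p = 2.78e-05), with group means of 5305 ± 792 and 942 ± 267 CPM, a ratio of 5.63. The fitted folds are on TMM-scaled libraries and exceed the ratios of plain CPM.

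B2m in microglia reached 15789, 13175, 16428 and 11652 CPM at day 14, and the highest library of the other groups was day 2 replicate 3 at 6111 CPM. Its log2 fold change was 2.52 ± 0.31 (interval 1.82 to 3.22, adjusted p = 0.000111), with means of 14261 ± 2238 against 3427 ± 484 CPM, a ratio of 4.16. H2-K1 reached 2505, 1916, 2615 and 2749.9 CPM, again above all sham and day 2 libraries. It rose by 2.19 ± 0.29 (interval 1.54 to 2.83, adjusted p = 0.000191), a ratio of means of 3.34.

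Tap1, which is scarce, stood in microglia at 34.6, 18.5, 8.53 and 19.1 CPM in sham libraries and at 79.2, 52.7, 108 and 39.7 CPM at day 14. The lowest day 14 value was just above the highest sham value. Its log2 fold change was 2.26 ± 0.37 (adjusted p = 0.00118). The immunoproteasome subunits had smaller fold changes. Psmb8 stood at 401, 345, 416 and 370.0 CPM at day 14, all above sham, with a log2 fold change of 1.03 ± 0.19 (adjusted p = 0.00274). Psmb9 stood at 93.2, 72.5, 74.7 and 56.8 CPM in sham and 117, 118, 171 and 88.4 CPM at day 14. Day 14 replicate 4 lay below sham replicate 1, and the log2 fold change of Psmb9 was 1.21 ± 0.25 (adjusted p = 0.00662). Tapbp had the smallest change, from 189, 106, 82.5 and 94.5 CPM to 171, 146, 189.7 and 116 CPM. Its groups overlapped, and its log2 fold change was 0.88 ± 0.25 (interval 0.31 to 1.45, adjusted p = 0.0312).

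In microglia at day 14, H2-K1, H2-D1, B2m, Tap1, Psmb8 and Psmb9 kept their calls under each alternative run. With library size alone their log2 fold changes were lower, from 0.58 for Psmb8 and 0.74 for Psmb9 to 2.50 for H2-D1, and that scaling moved the median over all genes down as well, from -0.04 to -0.49. It also turned the genes called from 1071 higher and 473 lower to 670 higher and 2755 lower. The libraries fell into 5 with a median mitochondrial share of 0.235% to 0.559% of counts per cell and 7 with 1.67% to 3.38%, spread over all 3 groups. With that split as a term, all 7 members remained called, at 2.27 for H2-K1, 3.06 for H2-D1, 2.53 for B2m, 2.23 for Tap1, 0.83 for Tapbp, 1.09 for Psmb8 and 1.22 for Psmb9. Tapbp lost its call with library size alone (0.40, adjusted p = 0.22), in DESeq2 (0.73, adjusted p = 0.062), with no filter on low counts (0.85, adjusted p = 0.052), and without sham replicate 2, 3 or 4 or day 14 replicate 1 or 3 (adjusted p from 0.079 to 0.106).

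**Figure D2:**
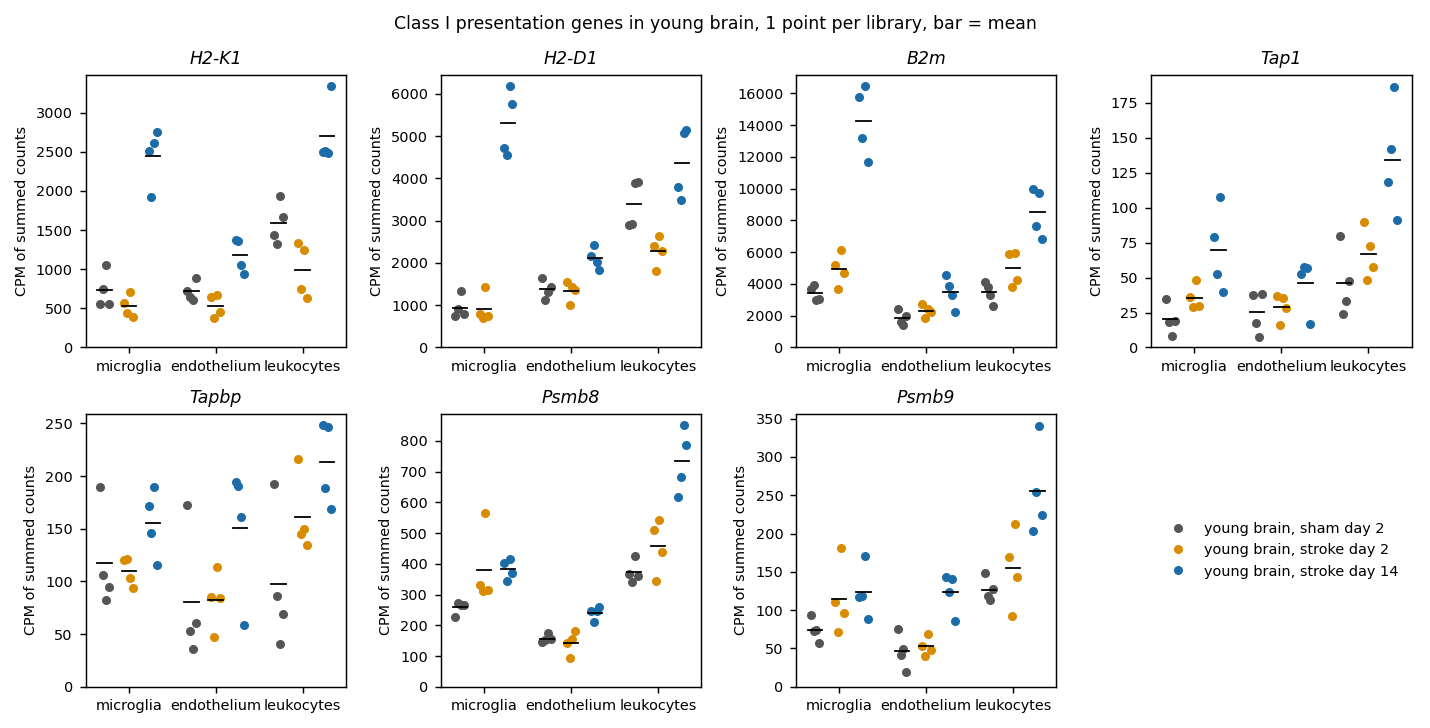
CPM of each member in every young brain library, by cell type (microglia, endothelium, summed leukocytes) and group (sham, stroke day 2, stroke day 14); each point is a library and each short line a group mean. In microglia the 4 day 14 libraries of H2-D1 sit between 4547 and 6186 CPM, and the other 8 between 705 and 1436 CPM.

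Between days 2 and 14 microglia gained H2-K1 (log2 fold change 2.62 ± 0.30, adjusted p = 0.000331), H2-D1 (2.96 ± 0.31, adjusted p = 0.0002), B2m (1.92 ± 0.30, adjusted p = 0.00262) and Tap1 (1.43 ± 0.39, adjusted p = 0.0421). That is 4 of 7 members, against 3.47% of genes called higher. Without day 2 replicate 3 the values were 2.67, 3.09 and 1.92 for H2-K1, H2-D1 and B2m, still called, and 1.42 for Tap1 (adjusted p = 0.0659). Tap1 also lost its call with library size alone (1.13, adjusted p = 0.0859), no filter (0.0596), the replicate block (0.077) or only the 2 groups compared (0.055), and without any 1 of sham replicates 2 and 4, day 2 replicates 1, 2 and 4, and day 14 replicates 1 and 3 (adjusted p from 0.0673 to 0.142). Tapbp (0.79, adjusted p = 0.0871), Psmb8 (0.45, adjusted p = 0.184) and Psmb9 (0.61, adjusted p = 0.195) did not pass, nor did they without day 2 replicate 3, at 0.76, 0.53 and 0.68.

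Markers of other cells were read in the same microglial sums. Pooled over all brain libraries, the dendritic cell list ranked next after the microglial one, at a mean of 277 CPM per gene. The monocyte list followed, at 242 CPM per gene. The monocyte list summed to 235 to 397 CPM in sham microglia, 520 to 4277 at day 2 and 2130 to 3097 at day 14. Most of it at day 14 was the lysozyme gene Lyz2, at 2125 to 3035 CPM against 233 to 375 in sham. Of the other 5 genes of the list at day 14, Ccr2 was at 0 to 10.5 CPM, Chil3 at 0 to 1.0, Ly6c2 at 0 to 27.7, Ms4a4c at 2.7 to 35.1 and Plac8 at 0 to 23.8. In sham they were at 0 to 12.4, 0 to 2.5, 0 to 2.1, 0 to 3.4 and 0 to 3.1 CPM in that order, so that the highest values of Ly6c2, Ms4a4c and Plac8 were above those of sham. Summed microglial markers went from 14610 to 21335 CPM in sham to 9815 to 13705 at day 14. Within that list P2ry12 was at 654 to 1368 CPM, against 3067 to 3566. The T cell list was at 2.9 to 20.8 CPM at day 14 and at most 3.1 in sham. The part of these shifts in the rise of the class I genes was not tested.

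Level by microglial state showed where the high values lay. The deposited annotation splits microglia into states Mg1 to Mg8. The genes used to define the states are not given in the sources used here and may include the members, so that the values are descriptions. At day 14 state Mg3 held 3415 cells over 4 libraries, with B2m at 15199 CPM (lowest library 13513, highest 16994), H2-D1 at 5686, H2-K1 at 2551 and Tap1 at 74.6. State Mg1 held 5826 cells in sham, with B2m at 3473 CPM (3004 to 3977), H2-D1 at 751, H2-K1 at 510 and Tap1 at 19.8. Sham libraries held few Mg3 cells, 70 in the 2 libraries with enough of them, with B2m at 6266 CPM. Within Mg1 itself B2m was higher at day 14, at 6154 CPM (5711 to 6514) over 313 cells of 3 libraries, and H2-D1 was at 1742 CPM (1587 to 2043) against 751 (664 to 915). The makeup of states and the level within Mg1 thus both differed between sham and day 14, as descriptions. At day 2 the main states were Mg4 (1034 cells, B2m 5036 CPM, H2-D1 1047) and Mg5 (910 cells, B2m 4141 CPM, H2-D1 598).

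**Figure D3:**
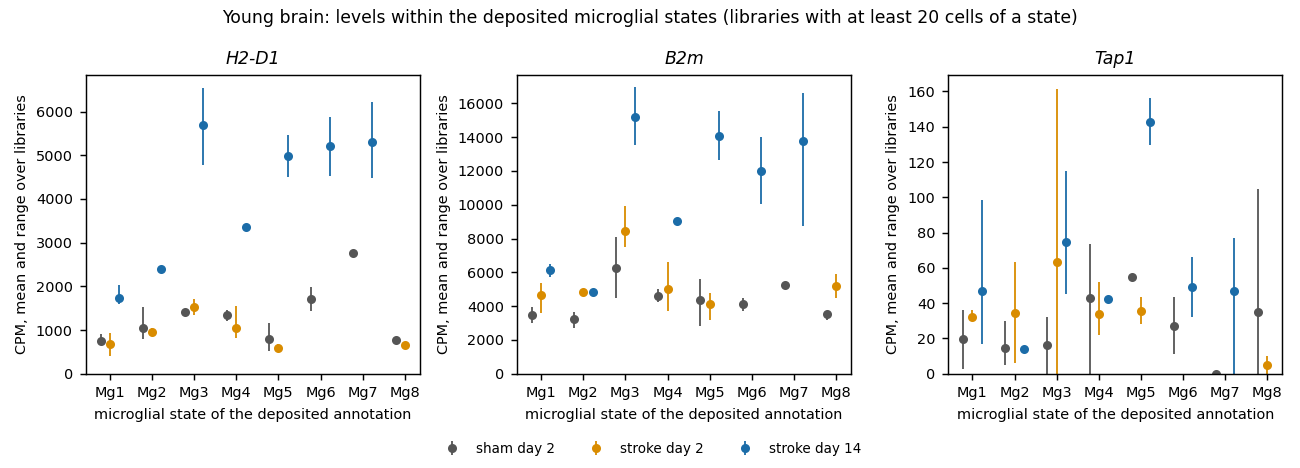
H2-D1, B2m and Tap1 in CPM by deposited microglial state (Mg1 to Mg8) and group; points are means over libraries and lines run from the lowest to the highest library. State Mg3 at day 14 has a mean of 15199 CPM of B2m, and H2-D1 and B2m in state Mg1 are higher at day 14 than in sham.

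In endothelium no member passed the edgeR test at either day against sham. H2-K1 stood at 727, 647, 603 and 883 CPM in sham replicates 1 to 4, at 641, 381, 665 and 451 CPM at day 2 and at 1369, 1358, 1049 and 944 CPM at day 14. Sham and day 2 overlapped, and each day 14 value was above each value of the other groups. At day 2 the log2 fold changes of the 7 members ran from -0.34 ± 0.23 for H2-K1 (adjusted p = 0.328) to 0.42 for B2m (adjusted p = 0.241), and 0 of 7 were called, where 6.89% of the 5833 genes tested were higher and 6.45% lower. At day 14, 0 of 7 members and 0% of all genes were called by edgeR, although 356 genes had an unadjusted p below 0.05 and DESeq2 called 10 genes, B2m among them (adjusted p = 0.041).

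The endothelial values at day 14 are therefore given with their intervals. Unlike the p-values, these intervals are not adjusted for the number of genes tested, so that one without 0 is not a call. H2-K1 differed from sham by 0.72 ± 0.23 (interval 0.20 to 1.23, adjusted p = 0.588), H2-D1 by 0.62 ± 0.20 (0.17 to 1.07, adjusted p = 0.588) and B2m by 0.92 ± 0.24 (0.38 to 1.46, adjusted p = 0.346). Psmb9 had the largest difference, 1.32 ± 0.30 (0.65 to 1.99, adjusted p = 0.275), from 75.5, 41.6, 49.6 and 19.5 CPM to 143, 124, 141 and 85.6 CPM. For H2-K1, H2-D1, Psmb8 and Psmb9 all 4 day 14 libraries were above all 4 sham libraries. The share of all genes without such overlap was not counted, so that this is a description only. Psmb9 in endothelium rested on 2.0 to 28.5 counts per sham library and Tap1 on 0.9 to 14.2, and the difference of Tap1 was 0.88 (adjusted p = 0.813), with day 14 replicate 4 at 17.1 CPM and the other 3 libraries at 52.8 to 57.9. Red cell genes summed to 36.6 to 3528 CPM in sham endothelium and 0 to 9732 CPM at day 14, and microglial markers to at most 60.9 CPM, and their part was not tested.

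From day 2 to day 14 endothelium gained H2-K1 (log2 fold change 1.06 ± 0.23, adjusted p = 0.00862) and Psmb9 (1.15 ± 0.27, adjusted p = 0.0146), 2 of 7 members, against 5.07% of genes higher and 6.14% lower. Psmb9 lost its call without day 14 replicate 1 (1.09, adjusted p = 0.0531). H2-D1 differed by 0.57 ± 0.20 (adjusted p = 0.0733) and Psmb8 by 0.63 ± 0.20 (adjusted p = 0.056). With the replicate number as a block, Psmb8 was called (0.67, adjusted p = 0.047), so that 3 of 7 passed, with H2-K1 at 1.06 (adjusted p = 0.0151) and Psmb9 at 1.11 (adjusted p = 0.0149). H2-D1 was called in DESeq2 (0.56, adjusted p = 0.0201). By endothelial state, B2m in EC1 was at 1474 CPM in sham (1033 cells) and 2840 CPM at day 14 (657 cells), and in EC5 it was at 4621 CPM at day 14 (232 cells).

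The change at day 14 was larger in microglia than in endothelium for the 3 chains, by a test of the difference itself in 1 fit over both types with the library as a block. The log2 fold change was larger in microglia by 2.36 ± 0.29 for H2-D1 (adjusted p = 3.39e-06), by 1.52 ± 0.30 for H2-K1 (adjusted p = 0.00161) and by 1.60 ± 0.26 for B2m (adjusted p = 0.000167). These were 3 of 7 members, against 5.74% of 10172 genes with a larger change in microglia and 2.21% with a larger change in endothelium. Tap1 differed by 1.29 ± 0.45 (adjusted p = 0.0832), Psmb8 by 0.45, Tapbp by -0.07 and Psmb9 by -0.16, none past the test. With fractional counts rounded up, H2-D1 remained called (2.23, adjusted p = 0.0123), and H2-K1 (1.43, adjusted p = 0.0788) and B2m (1.54, adjusted p = 0.198) did not. At day 2 no member was called (0 of 7), against 3.36% and 2.33% of genes, and none without day 2 replicate 3, where differences ran from -0.22 for H2-D1 to 0.48 for Psmb8.

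**Figure D4:**
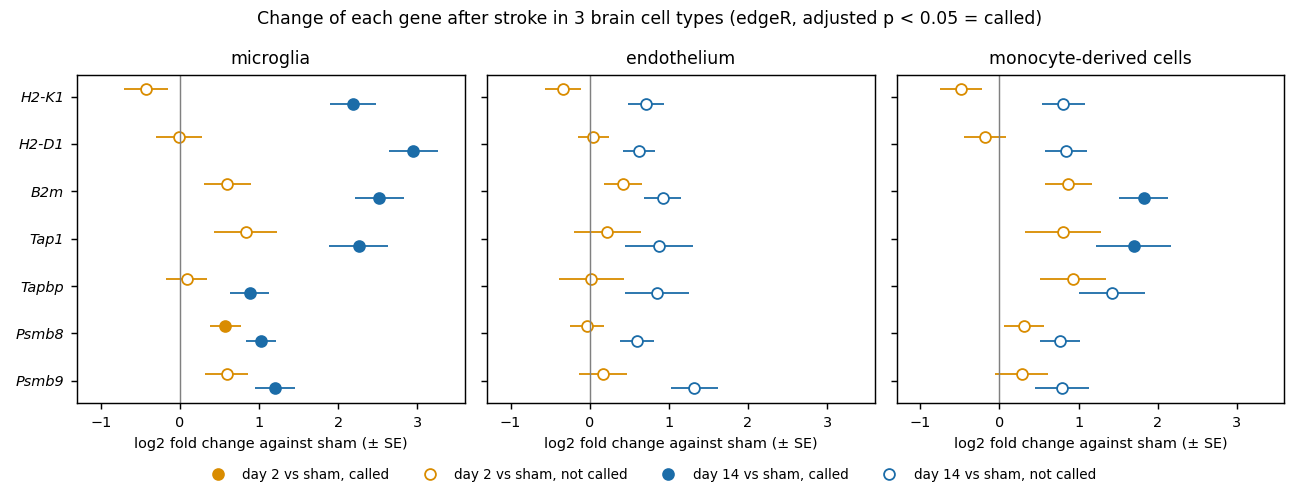
Log2 fold change of each member against sham at day 2 and day 14 in microglia, endothelium and monocyte-derived cells; points are fitted values, bars are standard errors and filled points passed an adjusted p of 0.05. All 7 microglial values at day 14 are filled, from 0.88 for Tapbp to 2.95 for H2-D1, and none in endothelium.

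Summed brain leukocytes showed a rise of B2m, Tap1 and Psmb8 at day 14. B2m stood at 4101, 3818, 3318 and 2632 CPM in sham replicates 1 to 4, at 5904, 3828, 5916 and 4253 CPM at day 2 and at 9989, 7631, 9752 and 6826 CPM at day 14. Day 14 was above both other groups in each library. The log2 fold changes against sham were 1.30 ± 0.28 for B2m (adjusted p = 0.0192), 1.57 ± 0.35 for Tap1 (adjusted p = 0.0203) and 0.97 ± 0.23 for Psmb8 (adjusted p = 0.0271), 3 of 7 members against 1.98% of the 10336 genes tested called higher. H2-K1 (0.77, adjusted p = 0.165), H2-D1 (0.36, adjusted p = 0.547), Tapbp (1.12, adjusted p = 0.0902) and Psmb9 (1.01, adjusted p = 0.0639) did not pass. Each call was lost without certain libraries: B2m without sham replicate 3 or day 14 replicate 1 or 3 (adjusted p from 0.0507 to 0.0766), Tap1 without sham replicate 2 or 3 or day 14 replicate 3 (0.0633 to 0.0873), and Psmb8 without sham replicate 1 or 3 or day 14 replicate 2, 3 or 4 (0.0565 to 0.0794).

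At day 2 no member passed in summed brain leukocytes (0 of 7, against 7.99% of genes higher and 6.43% lower). H2-K1 stood at 1331, 742, 1245 and 633 CPM against 1439, 1316, 1929 and 1672 in sham, a log2 fold change of -0.52 (adjusted p = 0.23). H2-D1 was at 2410.2, 1805, 2639.8 and 2272 CPM at day 2, below all sham libraries (2905 to 3915), with -0.39 on the fitted scale (adjusted p = 0.366). From day 2 to day 14 H2-K1 rose by 1.29 ± 0.28 (adjusted p = 0.0255), 1 of 7 against 1.61% of genes. That call was lost when only those 2 groups were fitted (1.29, adjusted p = 0.0578) and without day 2 replicate 4 or day 14 replicate 2 or 4 (adjusted p from 0.0633 to 0.104). The leukocyte mix differed between groups: monocyte-derived cells numbered 318 in sham, 7225 at day 2 and 2898 at day 14.

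Monocyte-derived cells, taken alone, gained B2m and Tap1 at day 14. B2m stood at 3879, 4747, 3460.3 and 3014 CPM in sham, at 6039, 3869, 5894 and 4328 CPM at day 2 and at 10810.1, 9493, 11434 and 7968 CPM at day 14. The day 14 libraries were above all others. Its log2 fold change was 1.82 ± 0.31 (interval 1.13 to 2.52, adjusted p = 0.00257) and kept its call under each alternative run, from 1.41 to 2.08. Tap1 stood at 70.0, 33.5, 24.6 and 0 CPM in sham, where the sums were of 43 to 99 cells per library, and at 99.6, 117, 134 and 82.5 CPM at day 14. Its log2 fold change was 1.70 ± 0.47 (adjusted p = 0.0493), with 2 of 7 members called against 4.21% of the 8080 genes tested.

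The call of Tap1 in monocyte-derived cells was lost without sham replicate 2, 3 or 4, day 2 replicate 1, 3 or 4, or any 1 of the 4 day 14 replicates (adjusted p from 0.0612 to 0.171). It was also lost with library size alone (1.32, adjusted p = 0.132), counts rounded up (0.0518), the highest Scrublet scores left out (0.0595), only the 2 groups compared (0.0721) and in DESeq2 (0.0588), in all in 15 of 21 alternatives. Without sham replicate 1 the value was 2.55. With the replicate block Tapbp was called (1.48, adjusted p = 0.0196), so that 3 of 7 passed. Without it, Tapbp (1.43 ± 0.42, adjusted p = 0.0614), H2-D1 (0.84, adjusted p = 0.0893), H2-K1 (0.81, adjusted p = 0.108), Psmb8 (0.76, adjusted p = 0.103) and Psmb9 (0.79, adjusted p = 0.242) did not pass. Scaling matters in this type: with library size alone the median over all genes moved from 0.28 to -0.11, and the genes called at day 14 went from 340 higher and 76 lower to 200 higher and 199 lower.

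At day 2, H2-K1 in monocyte-derived cells stood at 1211, 656, 1087 and 605 CPM, below all sham libraries (1357, 1979, 1753 and 1837 CPM). H2-D1 was at 2362, 1689.8, 2434 and 2201 CPM, also below the sham libraries (2752 to 4025). Their log2 fold changes were -0.49 ± 0.27 (adjusted p = 0.344) and -0.18 (adjusted p = 0.788), and B2m was at 0.87 (adjusted p = 0.101), with 0 of 7 called by edgeR, where 5.66% of genes were called higher and 1.05% lower. DESeq2 called H2-K1 lower (-0.68, adjusted p = 0.0485) and B2m higher (0.67, adjusted p = 0.0492). H2-K1 then rose from day 2 to day 14 by 1.29 ± 0.27 (adjusted p = 0.0219), 1 of 7 against 0.829% of genes, to 2284, 2007, 2001 and 2533 CPM. That call was lost with only those 2 groups (1.25, adjusted p = 0.0592), without the filter on low counts (1.11, adjusted p = 0.161) and without sham replicate 2, 3 or 4, day 2 replicate 4 or day 14 replicate 1, 2 or 4 (adjusted p from 0.0676 to 0.162).

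States of monocyte-derived cells differed by gene at day 14. State MdC6 (985 cells) had B2m at 12115 CPM and H2-D1 at 5257, and state MdC4 (716 cells) had Tap1 at 208 CPM (164 to 281) with B2m at 8652. In MdC3, the state of most sham cells, B2m was at 3776 CPM in sham (243 cells) and 6234 at day 14 (380 cells), and H2-K1 was at 1623 and 1438 CPM.

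Types not tested are described by their values. Brain granulocytes had H2-K1 at 261, 297, 409 and 262 CPM in sham replicates 1 to 4, at 409, 567, 639 and 399.9 CPM at day 2 and at 1109, 1847, 1110.1 and 1103 CPM at day 14. Every day 14 library was above every other. Brain T cells, of which the CD8 T cells read class I, had H2-K1 at 4365, 4132, 4538 and 3083 CPM in sham and 4345, 3769, 4330.0 and 5846 CPM at day 14, which overlapped. Their B2m was at 6699, 5759, 4989 and 5083 CPM in sham and 8205, 6934, 8885 and 6974 CPM at day 14, without overlap. Cd8a, the co-receptor that binds class I, was at 276 CPM (137 to 336) in 222 sham T cells and 336 CPM (251 to 473) in 853 T cells at day 14. Ifng, the gene of interferon gamma, was at 0 CPM in the microglia of every young library, and in brain T cells at 0 in sham, 0 to 269.9 CPM at day 2 and 0 to 85.4 CPM at day 14. The sham T cell sums held only 15809 to 28933 counts per library, so that a value of 0 there may reflect depth.

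In blood, H2-K1 rose in neutrophils at day 14. With all libraries fitted together, TMM scaling, the filter on low counts and no block, no other member was called by edgeR in a blood type. Between days, neutrophils gave 2 member calls with library size alone, 1 in DESeq2, with no filter, with the replicate block or with only the 2 groups compared, and 0 to 1 with a library left out. Summed blood leukocytes gave 1 without day 2 replicate 3. H2-K1 in neutrophils stood at 146, 258, 281 and 430.3 CPM in sham replicates 1 to 4, at 248, 375, 426 and 253 CPM at day 2 and at 1079, 501 and 782 CPM in the 3 day 14 libraries. The day 14 libraries were above all others. The log2 fold change was 1.22 ± 0.28 (interval 0.57 to 1.87, adjusted p = 0.0186), 1 of 7 members against 2.18% of the 4944 genes tested higher and 3.8% lower. It was lost without sham replicate 1 (1.03, adjusted p = 0.0616), day 14 replicate 1 (0.90, adjusted p = 0.119) or day 14 replicate 3 (1.27, adjusted p = 0.0608). With library size alone B2m was called there too (0.79, adjusted p = 0.0336). That scaling moved the median over all genes in neutrophils from 0.02 to 0.36, and the genes called went from 108 higher and 188 lower to 293 higher and 99 lower.

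H2-D1 in neutrophils was at 3837, 4681, 4919 and 5711 CPM in sham and 7810.2, 5330.4 and 8056 CPM at day 14, a log2 fold change of 0.23 (adjusted p = 0.58). B2m was at 1358, 1668, 1718 and 2563 CPM in sham and 3595, 2742 and 3063 CPM at day 14, with no overlap and a log2 fold change of 0.47 (adjusted p = 0.25). At day 2 the members' values ran from -0.03 to 0.22, with 0 of 7 members and 0% of genes called (edgeR; 209 genes at an unadjusted p below 0.05). From day 2 to day 14 H2-K1 differed by 0.99 (adjusted p = 0.053), with 0 of 7 called against 1.4% of genes higher.

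Blood monocytes had H2-K1 at 1247, 1167, 727 and 1057 CPM in sham and 1888, 1467 and 1783 CPM at day 14, without overlap. The log2 fold change was 0.71 ± 0.19 (adjusted p = 0.231), H2-D1 was at 0.52 (adjusted p = 0.389) and Tap1 at 0.75 (adjusted p = 0.537), and 0 of 7 were called by edgeR against 0.254% of the 6706 genes tested. DESeq2 called H2-K1 (0.70, adjusted p = 0.0435) and H2-D1 (0.51, adjusted p = 0.0478). No member of monocytes was called at day 2 (0% of genes, 189 at an unadjusted p below 0.05) or from day 2 to day 14 (0.0895% of genes higher). In B cells no member was called at day 2 (0% of 8762 genes), at day 14 (0.0114%) or between days (0.0114%), and day 14 values ran from -0.06 to 0.34. In T cells none was called at any of the 3 (0%, 0% and 0% of 5731 genes, with 138, 102 and 162 at an unadjusted p below 0.05), and day 14 values ran from -0.13 to 0.33. The summed blood leukocytes also gave 0 of 7 in each comparison, with 0%, 0% and 0% of 11907 genes called and 336, 578 and 1782 genes at an unadjusted p below 0.05, where DESeq2 called 0, 30 and 569 genes and also 0 of 7 members.

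The other genes of the pathway came from a list of 39, of which 38 were tested in microglia. At day 2, 10 of 38 were called higher and 5 lower, against 15.7% and 15.7% of all genes. Without day 2 replicate 3 the counts were 11 higher and 5 lower, and 14 genes were called in both fits. Psme1 was no longer called, and Calr (0.67, adjusted p = 0.0468) and Pdia3 (0.73, adjusted p = 0.0331) were. The constitutive catalytic subunits Psmb5, Psmb6 and Psmb7, which the immunoproteasome subunits replace, were all higher (3 of 3), with a median of 1.45 against -0.05 over all genes and 0.57 over the members (1.46, 0.01 and 0.48 without day 2 replicate 3). Psmb6 rose from 184 to 566 CPM, by 1.64 ± 0.22 (adjusted p = 0.000198), and by 1.53 without day 2 replicate 3. The proteasome assembly factor Pomp and the activator subunits Psme1 and Psme2 were also higher (3 of 5). Sec61b, a subunit of the channel through which proteins enter the endoplasmic reticulum, rose by 1.63 ± 0.27 (adjusted p = 0.001; 1.35 without that library) and was the 1 called of 7 loading genes. Of 11 other heavy chains, H2-Q7 was higher (a call lost with counts rounded up, adjusted p = 0.0603) and H2-Q4, H2-T23 and Mr1 were lower, with a median of -0.24 (-0.19 without that library). H2-Q4 fell by 1.28 ± 0.37 (adjusted p = 0.0188; fell by 1.25 without that library), a call lost without sham replicate 3, day 2 replicate 1 or day 2 replicate 4 (adjusted p from 0.062 to 0.0758). Among the regulators Stat2, which carries the interferon signal, was called higher, and Ifngr1, a receptor chain for interferon gamma, and Irf2 were lower. Ifngr1 fell by 1.36 ± 0.26 on the log2 scale, from 804 to 269 CPM (adjusted p = 0.00199), and by 1.23 without day 2 replicate 3.

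At day 14 most of the called genes of the list in microglia were heavy chains. Of 11, 8 were higher and 0 lower, where 10.6% of all genes were called higher and 4.66% lower (H2-M3, H2-Q4, H2-Q6, H2-Q7, H2-T10, H2-T22, H2-T23 and H2-T24), with a median of 1.61 against -0.04 over all genes and 2.19 over the members. H2-Q7, a non-classical heavy chain whose transcripts hold windows of H2-Q6 as given above, was at 2.33 to 6.00 CPM in sham and 178 to 256 CPM at day 14. It rose by 6.01 ± 0.36 (adjusted p = 7.92e-07), the largest fold among the members and the listed genes. H2-Q6 rose by 3.96 ± 0.53 (adjusted p = 0.000236), with counts uncertain for the shared windows given above. Of the loading genes only Sec61b was higher (1 of 7), of the constitutive subunits only Psmb6 (1 of 3), and Ifnar2 and Stat2 were called higher among the regulators. Ifngr1 was lower, at 316 against 804 CPM in sham (adjusted p = 0.0296), a call lost without sham replicate 1, 2 or 4 or day 14 replicate 1 or 2 (adjusted p from 0.0513 to 0.0891) and with counts rounded up (0.0642). From day 2 to day 14, 12 of 38 were higher and 0 lower, 8 of them heavy chains, against 3.47% of all genes higher and 3.46% lower. H2-Q7 was at 4.13 ± 0.35 and H2-Q4 at 2.89 ± 0.37. Without day 2 replicate 3 the same 12 genes were called, H2-Q7 at 4.09 and H2-Q4 at 2.84.

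In endothelium at day 2, 4 of 7 loading genes were called higher: Sec61b (1.38 ± 0.25, adjusted p = 0.00371), the chaperones Calr and Canx and the disulfide isomerase Pdia3 (1.20, adjusted p = 0.00409). Among the 5833 genes tested 6.89% were higher and 6.45% lower. These chaperones fold many proteins besides class I chains. Calr lost its call without sham replicate 2, 3 or 4 or day 2 replicate 1 (adjusted p from 0.0601 to 0.091). H2-T23 was lower (-0.90 ± 0.23, adjusted p = 0.0191), a call lost without sham replicate 3 or day 2 replicate 2, 3 or 4 (adjusted p from 0.0502 to 0.0705) and with no filter (0.061). Ifnar1, a receptor chain for type I interferon, was lower (-0.83 ± 0.23, adjusted p = 0.0287), a call lost in 7 of 21 alternatives. At day 14 against sham 0 of 32 were called, as were 0% of all genes. From day 2 to day 14 the 4 loading genes were lower and 3 of 7 heavy chains higher, against 5.07% of all genes higher and 6.14% lower. The call of Calr was lost with only those 2 groups and without day 2 replicate 1 or day 14 replicate 1, 2 or 3 (adjusted p from 0.0545 to 0.0759). That of Pdia3 was lost without day 2 replicate 2 (adjusted p = 0.0533) or day 14 replicate 4 (adjusted p = 0.0531). H2-T23 rose by 1.31 ± 0.23 (adjusted p = 0.00258). H2-Q7 (1.71 ± 0.50, adjusted p = 0.0382) lost its call with no filter and without any 1 of 11 of the 12 libraries, all but sham replicate 3 (adjusted p from 0.0512 to 0.126). Heavy chain H2-Q4 rose by 1.38 ± 0.31 (adjusted p = 0.0107) and lost its call without day 14 replicate 1 (1.08, adjusted p = 0.0622).

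In monocyte-derived cells at day 14, H2-Q7, H2-T23, Psmb6, Psme1 and Stat2 were called higher and none of the 37 listed genes tested was lower. Of all genes tested 4.21% were called higher and 0.941% lower, so that no lower call is near the share of all genes. The median was 0.84 over the list against 0.28 over all genes. H2-Q7 rose by 2.77 ± 0.60 (adjusted p = 0.0124), a call lost without sham replicate 1 (2.20, adjusted p = 0.0744). Stat2 there (1.66 ± 0.37, adjusted p = 0.0173) lost its call with library size alone and without sham replicate 1 or 2 (adjusted p from 0.054 to 0.103). At day 2, Calr, Pdia3, Psmb5, Psmb6 and Rfxap were higher and 0 of 37 lower, against 5.66% of all genes higher and 1.05% lower. Of these Psmb6 (1.20 ± 0.24, adjusted p = 0.00745) lost its call with library size alone (0.75, adjusted p = 0.0683). Between days, H2-Q4, H2-Q6, H2-Q7 and H2-T23 were higher at day 14 (4 of 10 heavy chains, against 0.829% of all genes). H2-Q7 rose by 2.76 ± 0.42 (adjusted p = 0.00365), and the call of H2-T23 (1.08 ± 0.25, adjusted p = 0.0424) was lost in 12 of 21 alternatives. That of H2-Q4 (1.88 ± 0.35, adjusted p = 0.0122) was lost in 3 of 21, with an adjusted p of up to 0.0604.

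Summed brain leukocytes had heavy chains among the genes called lower at day 2. At day 2, 7 of 39 listed genes were called higher and 3 lower, against 7.99% and 6.43% of all genes, and the 3 lower were heavy chains. H2-Q4 fell by 1.43 ± 0.28 (adjusted p = 0.00588), from 63.8 to 21.5 CPM, and H2-Q6 fell by 2.63 ± 0.59 (adjusted p = 0.0116). H2-Q7 fell by 1.84 ± 0.46 (adjusted p = 0.0184), from 221 to 54.7 CPM, a call lost without sham replicate 3 (adjusted p = 0.069). The genes called higher included Psmb5 (1.28 ± 0.26), Psmb6 (1.27 ± 0.24) and Pdia3 (1.16 ± 0.22). The same 3 heavy chains were higher at day 14 than at day 2, H2-Q7 by 2.80 ± 0.46 (adjusted p = 0.00829), H2-Q6 by 3.23 ± 0.58 and H2-Q4 by 2.04 ± 0.26. At day 14 against sham, H2-M3, Nlrc5, Psme1, Psme2 and Stat2 were called higher and 0 lower, against 1.98% of all genes higher and 2.21% lower. Stat2 was at 1.55 ± 0.27 (adjusted p = 0.00636), and H2-M3 (1.31 ± 0.34, adjusted p = 0.0492) lost its call in 11 of 21 alternatives. The makeup of these sums differed between groups, as given above.

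In blood neutrophils at day 14 the chaperone Canx rose by 2.34 ± 0.36 (adjusted p = 0.00204), from 16.9 to 109 CPM, and Ifngr1 fell by 1.01 ± 0.23 (adjusted p = 0.0176). The call of Ifngr1 was lost with library size alone and without sham replicate 1 or day 14 replicate 2 or 3 (adjusted p from 0.0616 to 0.101).

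Among themselves the members varied together in microglia over the 12 young brain libraries, which span the 3 groups. Pearson's r was 0.983 between H2-K1 and H2-D1 and 0.944 between H2-D1 and B2m, and lowest, 0.556, between Tapbp and Psmb8. In endothelium it was 0.869 between H2-K1 and H2-D1 and 0.295 between Tap1 and Psmb8, the lowest. The 5 genes most like the mean standardised log2 level of the members in microglia were Ank (r = 0.973), Apoe (0.973), Ccl6 (0.971), Npc2 (0.969) and Ly6e (0.967), among 6546 genes. In endothelium they were Ifit1 (0.922), Isg15 (0.910), Oasl2 (0.907), Ifi47 (0.875) and Xaf1 (0.857), among 5832. These values describe 12 points that share libraries, depth and group differences.

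In aged mice, at 17 to 20 months, no member was called at day 2 in microglia (0 of 7, against 1.78% of the 11096 genes tested called higher) or endothelium (0 of 7, against 0.606% of 6604 genes). H2-K1 in aged microglia was at 658 and 950.0 CPM in the male and female sham libraries and at 1122, 1283 and 533 CPM in the male and the 2 female stroke libraries, which overlapped. Its log2 fold change was 0.36 (adjusted p = 0.742). Tap1 was at 20.2 and 26.8 CPM in sham and 51.2, 61.2 and 45.1 CPM after stroke, without overlap, and differed by 1.24 ± 0.44 (adjusted p = 0.166). The aged response was not shown to differ from the young one: the interaction of age and stroke gave 0 of 7 members in either type, with 0% of genes in microglia and 0% in endothelium (623 and 356 genes at an unadjusted p below 0.05, and 1 and 0 genes called by DESeq2). For H2-K1 in microglia that interaction was 0.80 ± 0.52 (adjusted p = 0.788), and without young day 2 replicate 3 it was 0.79 ± 0.51 (adjusted p = 0.758), again with 0 of 7 called. The only aged library of day 14, from females, had microglial H2-K1 at 2103 CPM, H2-D1 at 4249.5, B2m at 13381 and Tap1 at 53.3. It has no replicate, and no test was run for it.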

How the data were processed

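The authors deposited expected counts per gene and cell, per the file headers and values: the numbers are fractional, with 0.320% to 4.81% of non-zero values exactly whole and 38.2% to 92.5% just under a whole number. The mm10 genome and Seurat are named in the submitters' processing notes, with no role given, and the aligner and the step that made counts fractional are not given in the sources used here. Cell types are the authors' deposited annotation.

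For every library, the cells of a type (at least 20 cells) were added up, and the sums were rounded and tested with edgeR 4.0.16 (R 4.3.3): quasi-likelihood fit, TMM scaling, filterByExpr, and Benjamini-Hochberg adjustment over all genes tested, with an adjusted p of 0.05 as threshold. Young brain groups were fitted together, as were blood groups. The leukocyte sum covers the deposited leukocyte types, without the blood cells coded pre and UC. CPM is per 1000000 counts of the type in the library, and values of different genes were not compared. Intervals are at 95% for each gene alone, with no adjustment for the number of genes tested. Alternatives were DESeq2 1.42.0, library size alone, no filter, counts rounded up, a replicate block, only the groups compared, each library left out, cells of at least 800 counts, sex as a covariate, and, chosen after seeing the data, a mitochondrial share term and removal of the 5% highest Scrublet scores, because its automatic call marked under 0.5% of cells in 17 of 18 brain libraries; doublets were otherwise not removed. Deviations of same-numbered young day 2 and day 14 libraries correlated at 0.14 to 0.48 in endothelium (4 pairs) and 0.27 to 0.76 in monocyte-derived cells. Those of same-numbered libraries with sham ran from -0.12 to 0.15 and from -0.08 to 0.10. Different-numbered libraries, over all pairs of groups, ran from -0.43 to 0.29 and from -0.64 to 0.53. In both types day 2 replicate 4 was more like day 14 replicate 3 than day 14 replicate 4, so that the number alone does not describe this likeness. The libraries of low mitochondrial share at these days were replicates 1 and 2. In monocyte-derived cells, day 2 replicate 2 was at 0.47 and 0.76 with day 14 replicates 1 and 2. With day 14 replicates 3 and 4 it was at -0.64 and -0.49. Day 2 replicate 1 was at 0.27, -0.03, -0.30 and 0.15 with day 14 replicates 1 to 4. The part of the mitochondrial share in this likeness was not tested. The likeness comes from the values, and the labels name no shared source. Scripts were tested on simulated data. Members and lists were chosen with earlier results of these data known. Besides the 7 members, named genes are at most 3 higher and 3 lower per comparison among called genes of the wider list, by fold, with a mean of at least 20 CPM. Some genes that this rule or the marker lists hold are not reported here.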

Additional observations from a re-analysis of the deposited data

Results flagged for a closer look

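Of 154 groups of 4 libraries, 9 had a library far from the other 3, where chance gives about 1 in 20. In microglia at day 2 after stroke, replicate 3 (58 microglia) was far above the others for H2-D1 (1436 CPM against 705 to 797) and for Psmb8 (566 against 311 to 332). In sham microglia, replicate 1 was low for Psmb8 (228 CPM against 267 to 271). In endothelium at day 14, replicate 4 was low for Tap1 (17.1 CPM against 52.8 to 57.9). In brain leukocytes at day 14, replicate 4 was high for H2-K1 (3338 CPM against 2488 to 2507). In monocyte-derived cells of sham brain, replicate 3 had Tapbp at 0 (others 125 to 145 CPM), in a library sum of few cells. In sham blood, replicate 3 was high for H2-D1 in leukocytes (3879.8 CPM against 3299 to 3342), replicate 4 was high for Tap1 in neutrophils (68.0 against 29.3 to 31.0) and replicate 2 was low for B2m in B cells (2229.9 against 2667 to 2736).

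The day 14 change differed between microglia and endothelium, by the interaction test, for H2-K1 (1.52), H2-D1 (2.36) and B2m (1.60, all on the log2 scale and larger in microglia).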

How the results depend on the processing

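No called result changed direction under any alternative run. Counts of members called (of 7) moved by more than 1.5 times as follows. In microglia at day 2 the count fell from 1 to 0 with library size alone, no filter, counts rounded up, the highest Scrublet scores left out, the replicate block or only the 2 groups compared. DESeq2 called 1 in endothelium at day 14 (0 in edgeR), 1 in brain leukocytes at day 2 (0), 6 at day 14 (3) and 2 between days (1), 2 in monocyte-derived cells at day 2 (0) and 4 between days (1), 1 in blood neutrophils between days (0) and 2 in blood monocytes at day 14 (0). Over all genes in brain leukocytes DESeq2 called 1806 (1491 in edgeR) at day 2, 651 (433) at day 14 and 806 (369) between days. In monocyte-derived cells it called 518 (542) at day 2 and 386 (145) between days. It called 10 (0) in endothelium at day 14, 281 (232) in neutrophils between days and 37 (17) in blood monocytes at day 14. Between days, brain leukocytes gave 2 with library size alone or the mitochondrial term and 0 with only 2 groups. Monocyte-derived cells at day 14 gave 1 with library size alone, counts rounded up, Scrublet or only 2 groups and 5 with the mitochondrial term (main 2), and between days 2 with library size alone, rounding up or the mitochondrial term and 0 with no filter or only 2 groups (main 1). Neutrophils gave 2 at day 14 with library size alone (main 1), and between days 2 with library size alone and 1 with no filter, the replicate block or only 2 groups (main 0). Counts rounded up left 1 of the 3 differences between microglia and endothelium at day 14. Smaller moves were 6 in microglia at day 14 with DESeq2, library size alone or no filter (main 7), and between days 5 with DESeq2 or the mitochondrial term and 3 with library size alone, no filter, the replicate block or only 2 groups (main 4). Endothelium between days gave 3 with DESeq2, library size alone, the replicate block or the mitochondrial term (main 2). At day 14 brain leukocytes gave 4 with library size alone, rounding up, the block, only 2 groups or the mitochondrial term (main 3), and monocyte-derived cells 3 with DESeq2, no filter or the block (main 2). In sham, endothelium against microglia gave 4 with DESeq2, no filter or Scrublet (main 5), leukocytes against microglia 6 with DESeq2 (main 5), and leukocytes against endothelium 5 with library size alone (main 7). The cause of these shifts was not tested.

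Leaving out each library gave 0 to 1 in microglia at day 2, 6 to 7 at day 14 and 3 to 5 between days, 1 to 3 in endothelium between days, 0 to 2, 0 to 4 and 0 to 1 in brain leukocytes (day 2, day 14 and between days), 1 to 2 and 0 to 1 in monocyte-derived cells (day 14 and between days), 0 to 1 in neutrophils at day 14 and between days, 0 to 1 in blood leukocytes between days (1 without day 2 replicate 3) and 3 in each case between endothelium and microglia in sham (5 with all libraries).

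Same-numbered day 2 and day 14 libraries had positive correlations of their deviations in each brain type fitted, as did some libraries of different number. Besides the values given above for endothelium and monocyte-derived cells, those of same-numbered libraries ran from 0.07 to 0.55 in microglia and 0.10 to 0.80 in brain leukocytes. Over all pairs of groups, same-numbered libraries ran from -0.29 to 0.55 (mean 0.09) in microglia and -0.49 to 0.42 in blood. With the replicate block, Psmb8 in endothelium between days gained a call (0.67, adjusted p = 0.047), and no other member's call changed between days in endothelium or monocyte-derived cells. At day 14 against sham, Tapbp in monocyte-derived cells gained a call (1.48, adjusted p = 0.0196). In microglia with the block, Psmb8 at day 2 (0.59, adjusted p = 0.0762) and Tap1 between days (1.30, adjusted p = 0.077) lost their calls. Scaling by library size alone also moved the split of called genes in microglia at day 2 (1588 higher and 1594 lower to 1273 and 2118, all-gene median -0.05 to -0.22) and between days (352 and 351 to 202 and 955, median 0.10 to -0.19). The split moved in endothelium at day 2 (402 and 376 to 302 and 467) and between days (296 and 358 to 405 and 244, median 0.02 to 0.12), and in brain leukocytes at day 2 (826 and 665 to 586 and 858, median 0.09 to -0.08) and between days (166 and 203 to 238 and 152, median 0.04 to 0.21). It moved in monocyte-derived cells at day 2 (457 and 85 to 180 and 175, median 0.29 to -0.13), in neutrophils between days (69 and 163 to 182 and 79, median 0.03 to 0.36), in aged endothelium (28 and 12 to 23 and 21), and for microglia against endothelium at day 14 (584 and 225 to 281 and 1168, median -0.02 to -0.50). In sham it moved for leukocytes against microglia (1922 and 1469 to 1365 and 2791, median 0.01 to -0.42) and against endothelium (2030 and 1478 to 1510 and 2404, median 0.07 to -0.36). DESeq2 moved it in microglia at day 2 (1224 and 2185, median -0.28) and day 14 (1145 and 841), in monocyte-derived cells at day 2 (340 and 178) and day 14 (300 and 143), and in B cells (0 and 1 to 1 and 1 at day 14 and to 8 and 4 between days), in aged microglia (197 and 58 to 263 and 203), in aged endothelium (53 and 55) and in blood monocytes at day 14 (7 and 10 to 11 and 26). Library size alone moved it in blood monocytes between days (6 and 30 to 12 and 31). DESeq2 turned the order of higher and lower calls in monocyte-derived cells between days (67 and 78 to 214 and 172) and called more in microglia between days (523 and 353). With only cells of at least 800 counts, 4 sham means moved beyond 1 SD: endothelial Psmb8 (192 CPM, over the 2 sham libraries with enough such cells) and leukocyte H2-K1 (1198), H2-D1 (2775) and Psmb9 (143). Over those 2 libraries endothelial Tapbp moved from 80.5 to 121 CPM, within 1 SD of the sham libraries. No batch is given in the deposited metadata, so the planned batch term was not run. Depth limits the scarce genes Tap1, Tapbp and Psmb9 in endothelium and in sham monocyte-derived cells.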
